A study of Mus musculus with 2 samples.

Results

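The fragments described here come from a few abundant noncoding RNAs: the Y RNAs, 4.5S RNA, BC1, the 7SL RNA of the signal recognition particle, and 7SK RNA. Members were all distinct reads that the deposited table puts in its repeat class under the families scRNA, srpRNA or RNA, which gave 6853 of 2344366 distinct reads under 6 names. The names in the table are HY1 and HY3 (Y1 and Y3 RNA, after the human RNAs), 4.5SRNA, BC1_Mm, 7SLRNA and 7SK. The choice used annotation and no measured value.

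Small RNA was sequenced from mouse fetal liver at E18.5 (embryonic day), strain B6/129, from a gel fraction of 19 to 30 nt. There was 1 wild type library and 1 library of the genotype Ago2ADH, in which Argonaute 2, the Argonaute that cuts RNA paired to its guide, is catalytically inactive. How many fetuses gave each library, and whether livers were pooled, is not given in the sources used here. With 1 library per genotype no difference has a replicate check and no p-value is given; the 95% intervals cover counting error only.

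These RNAs are made by RNA polymerase III, which ends transcription in a run of U, and most are kept in stable particles with protein. Y RNAs bind the ring-shaped protein Ro60 and the La protein and serve in RNA quality control. 7SL RNA is the scaffold of the particle that brings ribosomes making secreted proteins to the endoplasmic reticulum, a heavily used route in liver. 7SK RNA holds the transcription elongation kinase P-TEFb inactive together with the proteins HEXIM1, LARP7 and MEPCE. 4.5S RNA occurs in rodents and resembles the B1 repeat, which itself arose from 7SL, and BC1 is a rodent RNA of neurons and germ cells that arose from a tRNA.

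The wild type library held 7599870 reads and the Ago2ADH library 7046197, of which 24068 and 19614 were members. That is 0.317% of wild type reads (exact Clopper-Pearson 95% interval 0.313 to 0.321) and 0.278% of Ago2ADH reads (0.274 to 0.282). Of the members, 3619 were read once in all, 495 had 10 or more reads in both libraries together and 65 had 100 or more. Many are nested versions of the same fragment, so they are not independent of each other. Levels are given as RPM, the count per 1000000 reads of the library. A count of 3 corresponds to 0.395 RPM in wild type and 0.426 in Ago2ADH.

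Sequences of RNAs that the fragments come from are shown first, from the GENCODE M21 transcripts (GRCm38), because the results turn on where on each RNA a read begins and stops. Rny3 (ENSMUSG00000064945.1, chr6:47781624-47781725, plus strand) and Rny1 (ENSMUSG00000065701.1, chr6:47788069-47788180, minus strand) lie 6343 bases apart, and no other annotated gene overlaps either. Capitals mark the most counted read of each RNA.
Rny3: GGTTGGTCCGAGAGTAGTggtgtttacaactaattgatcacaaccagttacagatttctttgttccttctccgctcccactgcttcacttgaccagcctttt
Rny1: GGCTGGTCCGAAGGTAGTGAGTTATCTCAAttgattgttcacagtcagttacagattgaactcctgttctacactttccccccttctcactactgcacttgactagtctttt

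7SL RNA is annotated at Rn7s1 (ENSMUSG00000099021.1, chr12:69159295-69159594, plus strand) and Rn7s2 (ENSMUSG00000099250.1, chr12:69361182-69361481, minus strand). The annotated sequences of both are identical over 300 bases, so their reads cannot be told apart; short predicted miRNA genes (Gm47287 and Gm47295 in Rn7s1) are annotated inside them on the same strand.

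7SK RNA is annotated at Rn7sk (ENSMUSG00000065037.1, chr9:78175303-78175633, minus strand, no overlapping gene). The capitals mark the most counted read from each end.
7SK, positions 1 to 60: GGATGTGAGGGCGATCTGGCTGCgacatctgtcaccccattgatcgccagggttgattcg
7SK, positions 272 to 331: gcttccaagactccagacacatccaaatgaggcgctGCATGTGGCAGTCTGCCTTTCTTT

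For 4.5S RNA a sequence of 94 bases was joined from overlapping reads of the table. It ends in a run of T, at which the joining was set to stop, so the true end may differ. Capitals mark the most counted read.
4.5S, joined: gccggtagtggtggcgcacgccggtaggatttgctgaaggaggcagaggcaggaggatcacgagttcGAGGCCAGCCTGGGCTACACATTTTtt

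The labels of the table were checked against these sequences. Reads named HY3 matched Rny3 exactly for 99.98% of both libraries together, those named HY1 matched Rny1 for 99.8%, 7SLRNA matched Rn7s1 for 98.8% and 7SK matched Rn7sk for 98.4%. Of the 4.5SRNA reads 73.2% matched the joined sequence. That sequence was built from these same reads, so this share does not check the label. Of the 4.5SRNA reads 18.4% also occur inside reads the table assigns to SINE repeats. No read matched only the opposite strand of its RNA (0 of 24068 and 0 of 19614 member reads). These totals include reads that matched neither strand, among them most BC1_Mm reads. The 4.5S reads were compared with a sequence joined from themselves, and all members were already assigned to their RNA by the table. The counts therefore set no limit on antisense RNA. Reads with 1 genome match were 93.99% of HY3 and 89.2% of HY1 reads in wild type, but 18.9% of 7SK, 3.27% of 4.5S and 0.580% of 7SL reads.

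The name BC1_Mm does not describe its reads well. Bc1 (ENSMUSG00000115783.1, chr7:144914470-144914637, plus strand, no overlapping gene) held 10.6% of them, 116 reads in wild type and 71 in Ago2ADH. In contrast 51.8% occur inside reads the table names tRNA and 60.7% inside SINE reads, sets that overlap. The 2 most counted reads are absent from Bc1.
Bc1, positions 1 to 60: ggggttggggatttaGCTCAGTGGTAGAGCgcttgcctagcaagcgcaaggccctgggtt
BC1_Mm, most counted read: gctcagtggtagagca
BC1_Mm, second read: ggggatgtagctcagt
The capitals in Bc1 mark the 15 bases it shares with the start of the first read; that read as a whole lies inside reads of tRNA-Cys, and the second inside reads of tRNA-Ala. BC1_Mm is therefore kept below as a name of the table, not as BC1 RNA. Of 7 neuron marker mRNAs 3 are listed in the table at all, at 26 reads for wild type and 29 for Ago2ADH.

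Fragments of these RNAs together were slightly fewer in Ago2ADH, at 2784 RPM against 3167 in wild type (log2 -0.19, interval -0.21 to -0.16). Y3, at 926 RPM in wild type, and 4.5S, at 845, were the most abundant, followed by 7SK at 662, 7SL at 363, Y1 at 223 and BC1_Mm at 148. In Ago2ADH the levels were 711 for Y3, 882 for 4.5S, 439 for 7SK, 454 for 7SL, 208 for Y1 and 90.5 for BC1_Mm. The order of Y3 and 4.5S, and that of 7SK and 7SL, was thus exchanged between the libraries.

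**Figure D1:**
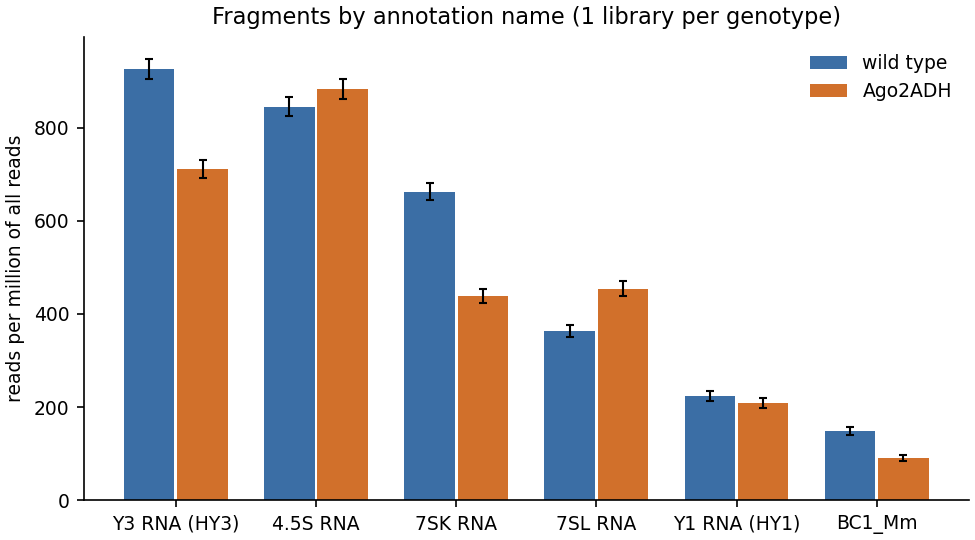
RPM (y axis) for the 6 names (x axis) in the wild type and the Ago2ADH library, with bars from 0 and exact Poisson 95% intervals that cover counting error only. Y3, 7SK and BC1_Mm were lower in Ago2ADH, 7SL member reads were higher (363 and 454), and 4.5S and Y1 differed least. The 7SL bars leave out its 3′ ends with added A, described below, which had 269 RPM in wild type and 227 in Ago2ADH.

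Ratios are given as log2 of Ago2ADH over wild type. They were -0.71 for BC1_Mm (-0.85 to -0.57), -0.59 for 7SK (-0.66 to -0.53) and -0.38 for Y3 (-0.43 to -0.33). For Y1 the value was -0.10 (-0.21 to -0.00), for 4.5S 0.06 (0.01 to 0.11) and for 7SL 0.32 (0.25 to 0.40); scaled to miRNA reads, 4.5S turned to -0.05. A size rule was used in place of a test. It required 100 or more reads in both libraries together, a ratio of 0.5 or less or 2 or more, and an interval that excludes equality. No name of the 6 met it. Over all 4025 names of the miRNA, RefSeq and repeat classes with 100 or more reads, 0.994% met it as higher and 0.547% as lower; within the 354 names of the repeat class the shares were 1.13% and 0.565%. The median log2 ratio was 0.01 over the 4025 names and -0.09 over the 354.

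Fragments of marker mRNAs for the main cell types of fetal liver were read in the same libraries. Of 9 erythroid marker mRNAs, 7 lay below equality beyond counting error and 0 above, where 5.95% of 9550 RefSeq names with 20 or more reads lay below and 6.21% above. Together the erythroid markers had 1813 RPM in wild type against 1148 in Ago2ADH (-0.66). The 8 hepatocyte markers summed to 0.08, with 3 above and 4 below. The part of the erythroid markers in the lower 7SK and Y3 levels was not tested, and in whole liver fewer cells of a type and less RNA per cell cannot be told apart.

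Read length differed between the 2 libraries for most of these RNAs. Shorter reads were scarcer and longer reads more frequent in Ago2ADH. For all members, reads of 15 to 18 nt made up 27.1% in wild type and 18.98% in Ago2ADH, while reads of 25 to 30 nt made up 24.8% and 31.3%. The log2 ratio of the members was -0.70 at 15 to 18 nt, -0.18 at 19 to 24 nt, 0.15 at 25 to 30 nt and 0.60 at 31 to 34 nt, so the direction of the total depends on the lengths counted. Reads of 25 to 30 nt alone gave 0.36 for Y1, 0.14 for Y3 and 0.11 for BC1_Mm (from 33 and 33 reads, interval -0.63 to 0.85), in sign the opposite of the values over all lengths. 7SK stayed lower, at -0.34 (-0.48 to -0.20) at 25 to 30 nt and -0.49 (-1.02 to 0.02) at 31 to 34 nt. Its reads of 25 to 30 nt nevertheless rose as a share of 7SK reads. In 7SL the share of reads of 25 to 30 nt went from 14.3% in wild type to 12.6% in Ago2ADH. That of 31 to 34 nt went from 1.30% to 0.75%, from 36 and 24 reads.

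A trend of the same direction ran through the libraries as a whole. All other reads without miRNA and synthetic sequences had values of -0.20, -0.08, 0.06 and 0.27 in the same 4 length ranges. The medians over repeat-class names with 100 or more reads were -0.17, -0.14, 0.22 and 0.56. At 25 to 30 nt the members (0.15) lay under reads of LTR (0.19), rRNA (0.33), SINE (0.33), LINE (0.37) and snRNA (1.26). They lay above reads of RefSeq (-0.03) and tRNA (-0.08). At 31 to 34 nt the members (0.60) lay near SINE (0.67) and LINE (0.60) and under rRNA (1.03) and snRNA (1.31). There they lay above RefSeq (0.50), LTR (0.46) and tRNA (0.02). At 15 to 18 nt the members summed (-0.70) lay below all of these, but 4.5S alone (-0.35) was level with tRNA. Values were -0.02 for rRNA, -0.17 for SINE, -0.06 for LINE, 0.22 for snRNA, -0.10 for LTR, -0.25 for RefSeq and -0.35 for tRNA. What part of the members' shift goes with this difference between the libraries was not tested. Reads of 15 to 18 nt are shorter than the gel fraction the labels give.

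**Figure D2:**
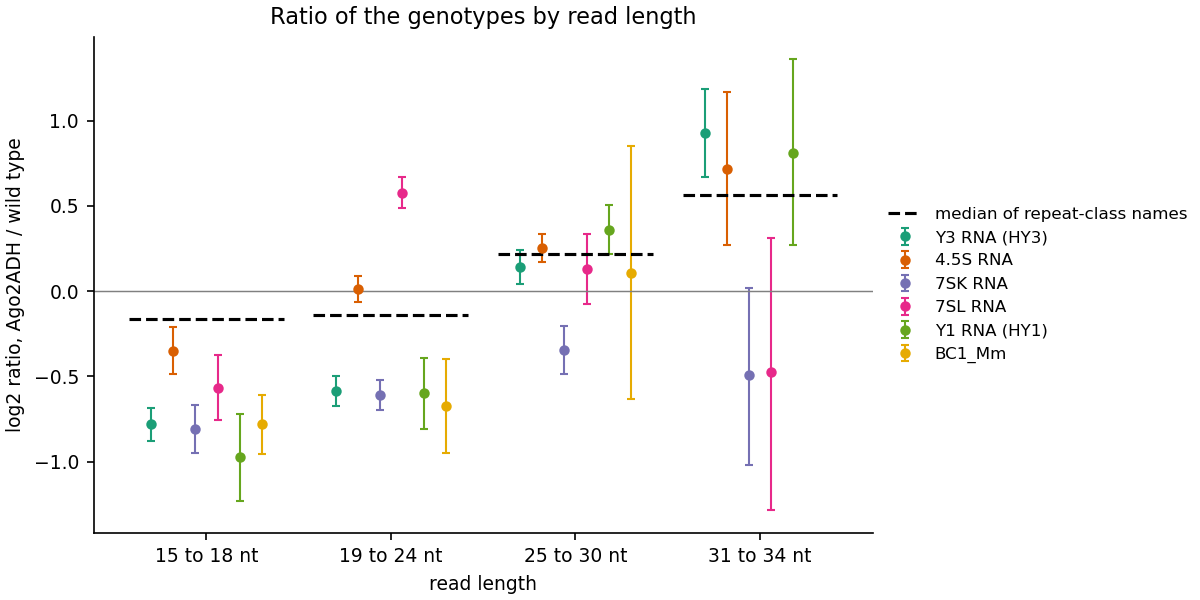
Log2 of Ago2ADH over wild type (y axis) for each name in 4 ranges of read length (x axis), with exact conditional 95% intervals (counting error only), and dashed lines for the median over repeat-class names. Y3 and Y1 lie below the dashed line at 15 to 24 nt and near or above it in longer reads, 7SK lies below it throughout, and 7SL stands above it at 19 to 24 nt (0.58).

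Y RNA fragments came mainly from the ends of the RNA. In Y3, 87.6% of the wild type reads placed on Rny3 and 85.4% of the Ago2ADH reads started at position 1. Reads within 5 bases of the 3′ end were 2.53% (2.18 to 2.92) and 4.42% (3.86 to 5.02). Y1 gave more of its 3′ end: 27.7% (25.6 to 29.9) of its wild type reads and 37.8% (35.3 to 40.3) of its Ago2ADH reads, with 56.9% and 50.6% at the 5′ end. The rest of the RNA, which holds the single-stranded loop, gave 6.88% and 6.89% of the Y3 reads and 15.4% and 11.6% of the Y1 reads.

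Y3 fragments from position 1 formed a ladder of preferred stops. The 18-nt read, which stops after ggttggtccgagagtagt, was read 1352 times in wild type against 728 times in Ago2ADH (-0.78, interval -0.92 to -0.65). The 21-nt read had 905 and 564 (-0.57, interval -0.73 to -0.42), and the 27-nt read 557 and 440 (-0.23, interval -0.41 to -0.05). All 3 are lower in Ago2ADH, less so with length. The 24-nt read, with 353 and 160 reads (-1.03, interval -1.31 to -0.76), and the 17-nt read, with 173 and 76 (-1.08, interval -1.49 to -0.68), met the size rule as lower. Scaled to reads other than miRNA and synthetic, the 24-nt read was at -0.99 and no longer met it.

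Reads of Y3 that reach past position 27 went the other way. The 28-nt read had 190 and 290 reads (0.72, interval 0.45 to 0.99), and the 31-nt read 170 and 299 (0.92, interval 0.65 to 1.20). Summed over lengths, reads from position 1 of 15 to 24 nt went from 606 to 368 RPM (-0.72), those of 25 to 27 nt from 128 to 105 (-0.28), and those of 28 nt or more from 77.1 to 134 (0.79, interval 0.64 to 0.95). The turn from lower to higher lay between 27 and 28 nt, a limit chosen after the values were seen.
Y3, 27 nt: ggttggtccgagagtagtggtgtttac
Y3, 28 nt: ggttggtccgagagtagtggtgtttaca
Y3, 31 nt: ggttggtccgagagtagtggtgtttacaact

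Y1 showed a like ladder with its main stop farther out. Its 30-nt read from position 1, the capitals in Rny1 above, was read 159 times in wild type against 228 times in Ago2ADH (0.63, interval 0.33 to 0.93). Its 18-nt read, ggctggtccgaaggtagt, fell from 133 to 42 (-1.55, interval -2.09 to -1.04), the largest decrease of any member under the size rule. The 22-nt and 23-nt reads also fell, from 77 to 32 (-1.16) and from 78 to 33 (-1.13). Reads of 28 nt or more from position 1 went from 31.8 to 50.2 RPM (0.66, interval 0.42 to 0.90), and those of 15 to 24 nt from 75.7 to 42.2 (-0.84, interval -1.05 to -0.64).

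The 3′ fragments of Y1 started mostly at position 83, with 246 and 291 reads, or at 84, with 157 and 180. The most counted, cttctcactactgcacttgactagtctt, is 28 nt long and had 99 and 165 reads (0.85, interval 0.48 to 1.22). Reads within 5 bases of the 3′ end went from 61.7 to 78.5 RPM in Y1 (0.35, interval 0.17 to 0.53) and from 23.4 to 31.4 in Y3 (0.42, interval 0.13 to 0.71). The 5′ ends of the same RNAs were at -0.27 (-0.41 to -0.13) in Y1 and -0.41 (-0.47 to -0.36) in Y3. Among reads matched to the genome and summed over all lengths, then, 3′ fragments were higher and 5′ fragments lower for both Y RNAs. The 3′ fragments were also longer. Mean lengths in wild type were 26.1 nt (3′) and 22.99 nt (5′) in Y1, and 24.4 nt and 21.2 nt in Y3. At the 5′ end, reads of 28 nt or more from position 1 were higher, at 0.66 in Y1 and 0.79 in Y3. Whether the ends differ at equal read length was not tested.

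**Figure D3:**
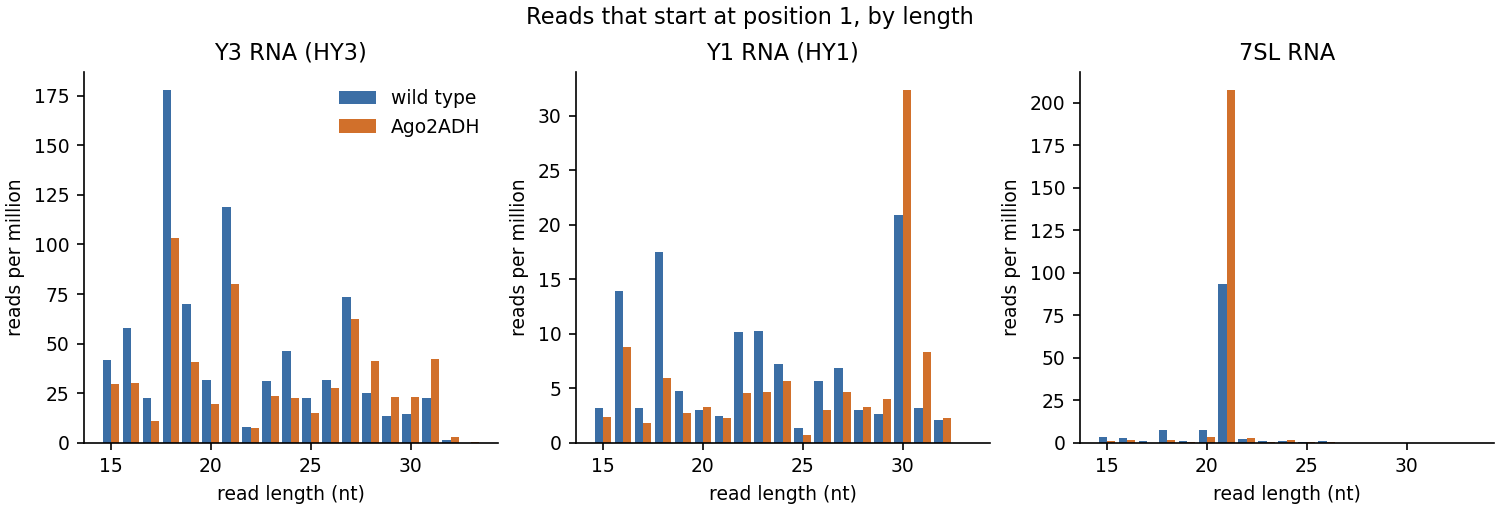
RPM (y axis) of reads that start at position 1 of Y3, Y1 and 7SL RNA, by read length (x axis), in wild type and Ago2ADH. Y3 shows stops at 18, 21 and 27 nt that are lower in Ago2ADH and longer reads that are higher, Y1 a main stop at 30 nt, and 7SL nearly a single length, 21 nt.

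Among the members 7SL gave 1 dominant fragment, and that fragment rose. Reads of the 3′ end of 7SL with added A, described below, are not members and together had 2042 and 1596 counts. The first 21 bases of 7SL were read 709 times in wild type (93.3 RPM) against 1463 times in Ago2ADH (208 RPM). That is 2.23-fold higher (2.03 to 2.44), or 1.15 in log2 (1.02 to 1.29). It was the most counted member, with 36.4% of all 7SL member reads. Of 65 members with 100 or more reads, no other met the size rule as higher. Shorter reads from the same start fell together, from 182 to 57 reads at 15 to 20 nt (-1.57, interval -2.02 to -1.13). Reads of 22 nt or more had 38 and 41 (0.22, interval -0.45 to 0.90).

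The sharp stop at 21 nt is visible in the shares. Of reads starting at position 1 of 7SL, 76.3% in wild type and 93.7% in Ago2ADH were 21 nt long. The 20-nt read had 59 and 23 reads and the 18-nt read 58 and 12. Without the 21-nt read, 7SL had 270.0 RPM against 247 (-0.13, interval -0.22 to -0.04), so the higher level of 7SL member reads rests on this sequence. The read matches the genome 34 times, so its source among 7SL copies is unknown.
7SL, 21 nt: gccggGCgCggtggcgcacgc
4.5S, 21 nt: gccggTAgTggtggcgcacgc
Capitals mark the positions at which 7SL and 4.5S RNA differ within these 21 bases (G6T, C7A and C9T, counted from 1 at the 5′ end, 7SL base first). The 4.5S read of the same start and length had 98 and 109 reads, and 4.5S reads from position 1 went from 391 to 469 (0.37, interval 0.17 to 0.57).

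Inside 7SL a second fragment was higher in Ago2ADH. Reads that stop at position 102 were counted 68 times in wild type against 140 times in Ago2ADH (1.15, interval 0.72 to 1.59). Their main form starts at position 80, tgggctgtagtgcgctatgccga, with 30 and 50 reads. Internal reads of 7SL that stop elsewhere had 1137 and 984 (-0.10, interval -0.22 to 0.03), but they were not uniform. Of those that stop at position 295, the 23-nt read had 46 and 63 counts, the 22-nt read 3 and 26 and the 21-nt read 16 and 29. The 15-nt read from position 145 had 16 and 4. The stops at 102 and 295 and the 15-nt read were picked after their values were seen.

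Reads from the 3′ end of 7SL had 559 and 443 counts (-0.23, interval -0.41 to -0.04). The most counted, of 28 nt, had 48 and 78 (0.81, interval 0.27 to 1.36), and the 23-nt aacatagcgagaccccgtctctt had 78 and 46 (-0.65, interval -1.21 to -0.11). In this pair the longer form was higher and the shorter one lower. Not every read of this end followed that order, as the 20-nt read from position 281 had 13 and 30 counts. Most 3′ ends of 7SL, however, lie outside the members, since they carry an added A that the genome does not encode and so have no genome match. Among reads of 18 nt or more whose matched part stops in the last 4 positions, 82.9% (81.4 to 84.4) in wild type and 81.6% (79.8 to 83.2) in Ago2ADH ended in 1 to 3 added A. Other added bases were 0.528% and 0.971%.
7SL 3′ end, added A in capitals: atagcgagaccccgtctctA
7SL 3′ end, added A in capitals: agcgagaccccgtctcttA
The first of these had 262 and 129 reads and the second 158 and 169. Summed, 7SL ends with added A were at -0.25 (-0.34 to -0.15), beside -0.15 (-0.36 to 0.07) for matched ends in the same window.

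Y RNA ends carried added A as well, at shares that barely differed between the genotypes. For Y1 the share was 37.8% (33.99 to 41.6) in wild type and 37.7% (34.3 to 41.1) in Ago2ADH, and for Y3 47.6% (41.99 to 53.3) and 47.8% (42.8 to 52.8). For 7SK it was 17.4% (7.82 to 31.4) and 11.1% (5.46 to 19.5), from 8 and 10 reads. Since transcripts of these genes end in a run of T, a lost T followed by an added A and a wrongly read last base cannot be told apart for single reads. Other bases were far less frequent in the same place, from 0% to 2.75% over these RNAs.

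7SK fragments were lower along most of the RNA. A block at the 5′ end was most abundant: reads that start at positions 1 to 9 and stop at 22 or 23 were counted 1170 times in wild type against 662 times in Ago2ADH (-0.71, interval -0.85 to -0.57). Its leading read, ggatgtgagggcgatctggctgc, had 331 and 195 (-0.65, interval -0.92 to -0.39), and the 20-nt tgtgagggcgatctggctgc 201 and 103 (-0.86, interval -1.21 to -0.51). The 22-nt read from position 1 had 107 and 82 (-0.27, interval -0.71 to 0.15). The 17-nt and 18-nt reads with the same stop, gagggcgatctggctgc and tgagggcgatctggctgc, met the size rule as lower, with 74 and 27 reads for the first and 72 and 29 for the second. Internal reads, 74.9% and 75.3% of the placed 7SK reads, were at -0.58 (-0.66 to -0.51).

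Depth was not lower everywhere: over positions 221 to 240 it averaged 28.73 RPM in wild type against 28.77 in Ago2ADH, and at the 3′ end it was higher. Reads that stop within 5 bases of the end were counted 37 times in wild type against 87 times in Ago2ADH (1.34, interval 0.77 to 1.94), 0.748% (0.527 to 1.03) and 2.86% (2.29 to 3.51) of the placed 7SK reads. Their mean length was 22.8 nt and 22.5 nt, and at 19 to 24 nt alone they had 32 and 73 counts. The main form, gcatgtggcagtctgcctttcttt, had 10 and 26 reads. These are small counts, and the 5-base limit was set after the profile of the RNA had been seen.

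4.5S fragments came mainly from the 3′ part of the RNA. Reads that stop within 5 bases of the end of the joined sequence were counted 2259 times in wild type against 2541 times in Ago2ADH (0.28, interval 0.20 to 0.36), 48.0% and 55.9% of those placed. The most counted read, in capitals above, had 180 and 205 (0.30, interval 0.00 to 0.59). The form with 1 more C at its start, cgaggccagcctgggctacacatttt, had 108 and 157 (0.65, interval 0.29 to 1.02), and that with 1 more T at its end 143 and 124 (-0.10, interval -0.46 to 0.26). Internal reads went from 2006 to 1464 (-0.35, interval -0.44 to -0.25). Left out of these counts were 4.5S reads ending in cacattta, whose last base differs from the joined sequence. Among those, the 25-nt gaggccagcctgggctacacattta had 126 and 121 reads and the 20-nt cagcctgggctacacattta 51 and 78. Of 27 distinct 4.5S reads with 100 or more counts, none met the size rule, and their median was 0.25. The nearest to it, ttcgaggccagcctgggctacacattttt, had 48 and 89 reads, a ratio just under the limit.

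**Figure D4:**
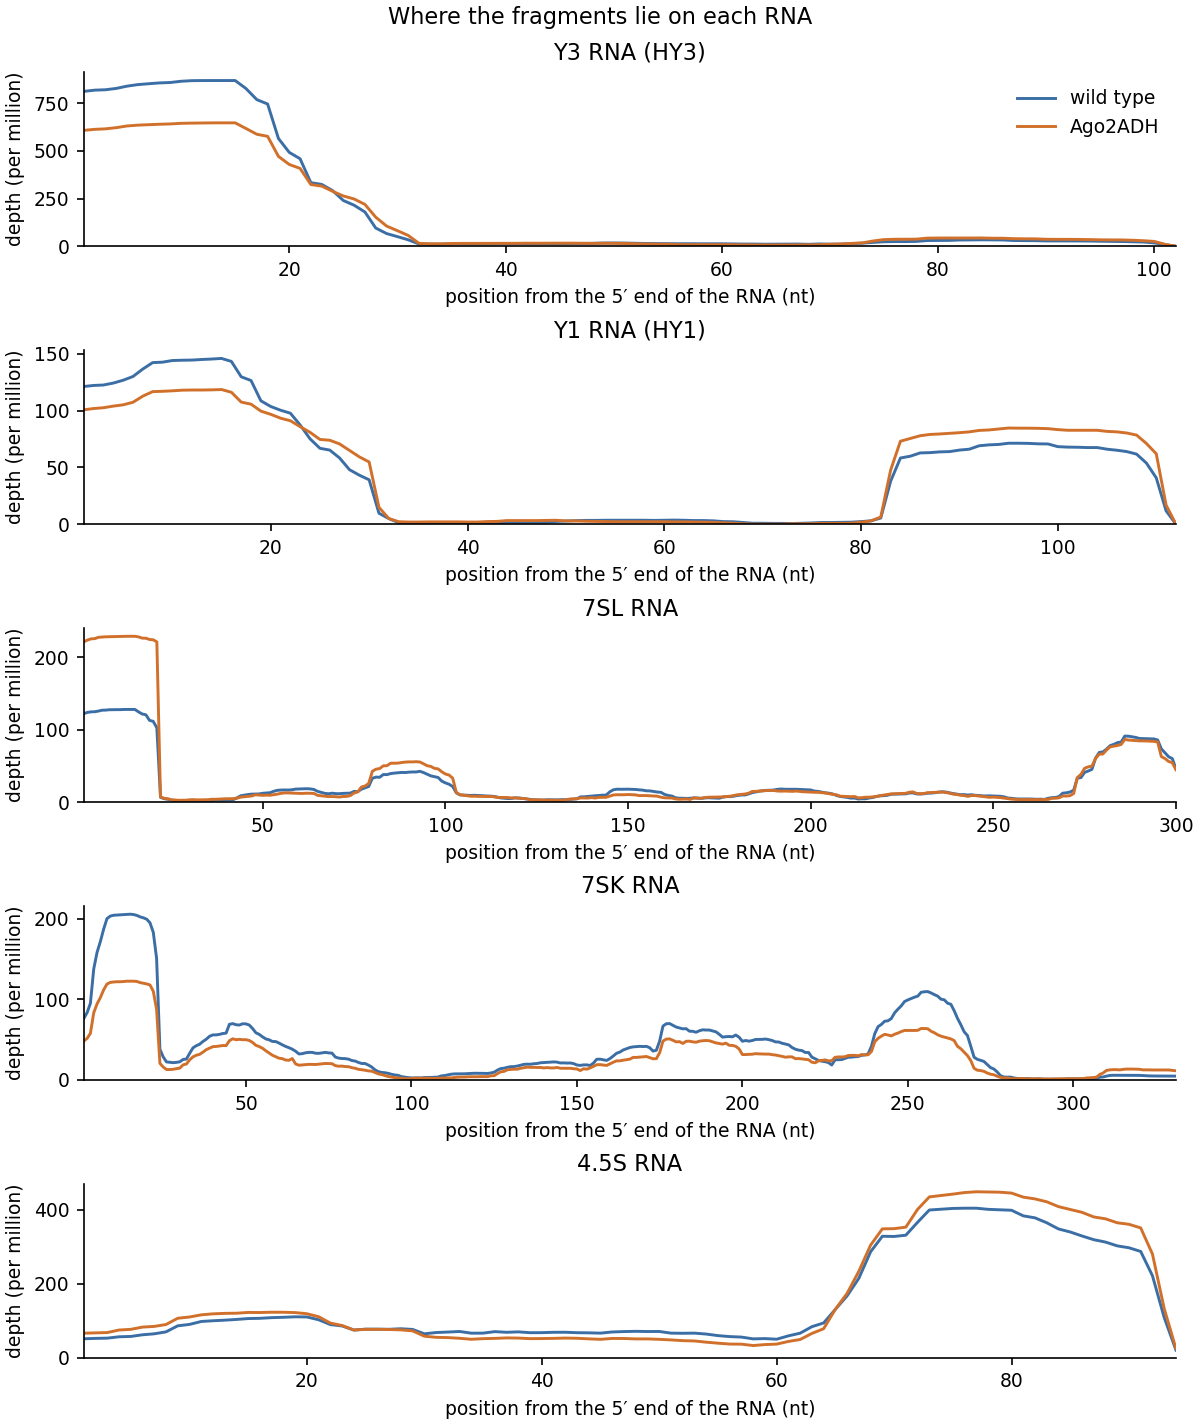
Read depth in RPM (y axis) at each position from the 5′ end (x axis) of Y3, Y1, 7SL, 7SK and the joined 4.5S RNA, in wild type and Ago2ADH, for reads that match exactly. Y RNAs are covered at both ends, 7SL has its highest depth over the first 21 bases, where Ago2ADH is higher, 7SK is covered along most of its length, with wild type higher at most positions, and 4.5S is covered mostly from position 65 onward.

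BC1_Mm reads were the shortest, with a median of 17 nt in each library against 21 nt and 22 nt for all members. The 16-nt gctcagtggtagagca fell from 113 to 40 reads (-1.39, interval -1.95 to -0.86), and it matches the genome 1110 times. The 16-nt ggggatgtagctcagt had 79 and 47 reads (-0.64, interval -1.19 to -0.10) and its 17-nt form 58 and 30 (-0.84, interval -1.53 to -0.18). tRNA fragments of 15 to 18 nt, which the table holds under other names, were at -0.35. Reads matching Bc1 itself but not its first 5 bases had 101 and 54 counts (-0.79, interval -1.30 to -0.30), 44 and 27 of them from the 15 bases in capitals above, a read that also lies inside tRNA reads and matches the genome 3907 times. Reads that start within the first 5 bases of Bc1 had 15 and 17 counts (0.29, interval -0.80 to 1.39).

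**Figure D5:**
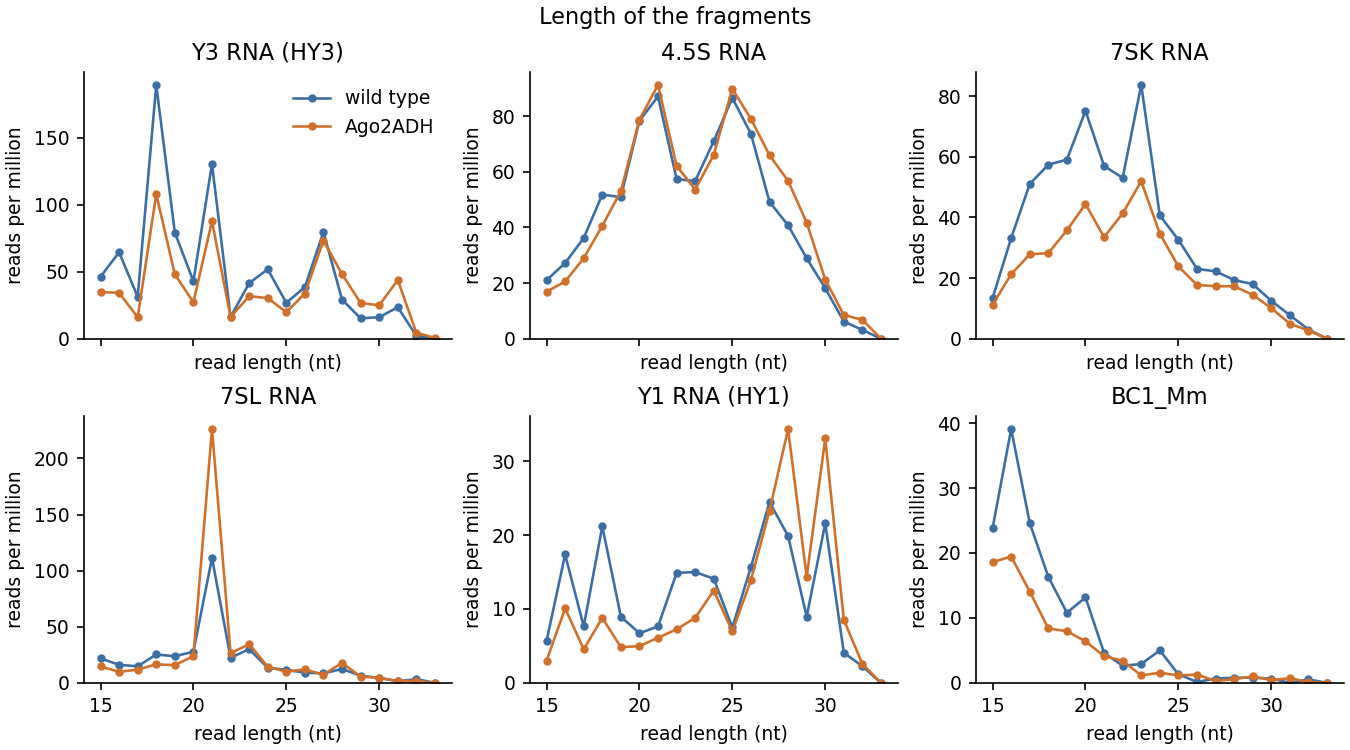
RPM (y axis) by read length (x axis) for each of the 6 names in wild type and Ago2ADH. Y3 peaks at 18, 21 and 27 nt, 7SL at 21 nt, 7SK at 20 and 23 nt, 4.5S at 21 and 25 nt, Y1 at 27, 28 and 30 nt beside shorter forms, and BC1_Mm at 16 nt.

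Over all distinct members with 100 or more reads, 1 of 65 met the size rule as higher and 8 of 65 as lower; scaled to reads other than miRNA and synthetic, 2 were higher and 7 lower, as the 29-nt 4.5S read named above came in and the 24-nt Y3 read dropped out. Among the 1597 distinct reads of the repeat class with as many counts, 7.45% met it as higher and 17.0% as lower, and among 6956 of all classes 7.39% and 11.3%. The members were thus not called more often than other repeat reads. Their median log2 ratio was -0.04, against -0.22 over the repeat class and 0.04 over all classes. The 8 lower members were 3 of Y1, 2 of Y3, 2 of 7SK and 1 of BC1_Mm, and each was 16 to 24 nt long.

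Fragments of mRNAs for the proteins that make or bind these RNAs were read at low counts, and most lay within counting error. Over the 9550 RefSeq names with 20 or more reads, 6.21% lay above and 5.95% below. Of 7 Y RNA partners with 20 or more reads, 2 lay above equality beyond counting error and 1 below: Ssb, which encodes La, had 23 and 41 reads (0.94, interval 0.17 to 1.75), Ybx1 97 and 121 (0.43, interval 0.03 to 0.83), and nucleolin (Ncl) 1947 and 1567 (-0.20, interval -0.30 to -0.11). Of 7 signal recognition particle and receptor mRNAs, 0 lay outside counting error in either direction, with Srp54a at 99 and 102 reads. Of 12 mRNAs of the 7SK particle 1 lay below, Hnrnpa2b1 with 228 and 158 reads (-0.42, interval -0.72 to -0.12). Of 20 mRNAs of the RNA polymerase III machinery 2 lay above and 0 below. The most counted, Gtf3c1, a subunit of the initiation factor TFIIIC, had 61 and 70 reads (0.31, interval -0.21 to 0.83). Those above were Polr3a, the largest subunit of the polymerase, with 10 and 23 reads and Snapc3, of the complex that starts 7SK transcription, with 14 and 31, both named after their values were seen. The medians of these lists were 0.01, -0.08, 0.18 and -0.22, beside -0.01 over the 9550 RefSeq names, and none of the partner mRNAs with 100 or more reads met the size rule.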

How the data were processed

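Small RNA reads of 1 wild type and 1 Ago2ADH fetal liver library were used. The authors deposited raw read counts of every distinct sequence in both libraries. Columns beside them give, per the file headers, how often a sequence matches the genome, its class and a description. No aligner, build or trimming tool is named in the labels. The table lists reads of 15 to 34 nt; 0 sequences are listed more than once, and 0 columns belong to other samples.

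Values are RPM over all reads of a library. Ratios have exact conditional binomial 95% intervals and shares exact Clopper-Pearson intervals, which cover counting error only, since PCR copies carry no molecular identifier. Precision is limited by the counts printed with each value. Reads were placed by exact match on GENCODE M21 transcripts. Longer stretches of 7SL sequence are not reported here. 4.5S RNA was joined from the most counted read by following the most counted 14-base words with at least 20 reads. Joining to the right was also set to stop at a run of T of fixed length. Simulated counts of the 4025 names were run through the size rule. With 100 or more reads, it called all 163 names changed 3-fold or 4-fold in either direction and 0 of 3694 unchanged ones. These counts were drawn with counting error only, at the depths of names and not of single reads. The outcome was largely set by that design and does not measure false calls between libraries without replicates. Alternatives were other scalings (TMM by edgeR 4.0.16 among them), lengths, genome matches, read minimums and fold limits. Python 3.11.15, scipy 1.17.1 and R 4.3.3 were used.

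Named are all 6 names, the 3 most counted reads of each, up to 5 of the largest increases and decreases under the size rule, and the most counted partner mRNAs; other reads and limits are said to be, or were, picked after their values were seen. Members and lists were chosen with earlier results of these data known.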

Additional observations from a re-analysis of the deposited data

How the results depend on the processing

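The log2 ratio of all members together, -0.19, was -0.30 scaled to miRNA reads, -0.14 scaled to reads other than miRNA and synthetic, -0.34 with only reads of 1 genome match, -0.23 without the most counted read of each name and -0.14 over distinct sequences. It turned to 0.15 with reads of 25 to 30 nt. No name met the size rule under any alternative run except the 1.5-fold limit, with 2 names lower, 7SK and BC1_Mm. The count of distinct reads past the size rule, 9, was 4 at 19 to 24 nt, 0 at 25 to 30 nt and 5 with 1 genome match, where fewer reads were tested. With no read minimum it was 101, with a minimum of 20 reads 40 and with 500 reads 2; it was 33 at the 1.5-fold and 0 at the 3-fold limit. Other scalings gave 9 or 10. Of 153 values of single names and reads under alternatives, 133 stayed within their interval or their call and 20 moved; none of the called ones reversed. 7SL reads with 1 genome match numbered 16 and 4 and were at -1.89, the opposite of all 7SL reads. No paired analysis was possible because there is 1 library per genotype, so leaving out a replicate was not possible either. Counts under 100 in a library, as at the 7SK 3′ end (37 and 87 reads), give wide intervals.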
